A study of Mus musculus with 6 samples.

Results

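The mRNAs of the translation initiation factors were examined in mouse macrophages grown from bone marrow. The members were the genes whose symbol begins with Eif and a digit, without Eif5a, Eif2s3y and the eIF2 kinases of the Eif2ak family, which gave 52 of the 19386 genes listed. An adjusted p-value was given for 49 of them, and 3 processed pseudogenes had none. The splicing table held 63 events inside 18 of these genes, of 10376 events in all. In the first step of initiation, a small ribosomal subunit loaded with eIF1, eIF1A, eIF3, eIF5 and the eIF2-bound initiator tRNA is recruited to the 5′ cap of an mRNA by eIF4F, the complex of the cap-binding protein eIF4E, the scaffold eIF4G and the helicase eIF4A. After scanning has reached a start codon, eIF2 hydrolyses its GTP and leaves bound to GDP, which the guanine nucleotide exchange factor eIF2B later replaces, and eIF5B brings in the large subunit, which eIF6 otherwise holds apart. In macrophages, control of these steps through the 4E-binding proteins and through eIF2 phosphorylation is known to affect the output of inflammatory mRNAs.

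All 6 libraries came from wild-type C57BL/6 mice, 3 from animals that breathed cigarette smoke and 3 from animals kept in room air. The macrophages were grown for 11 days in medium with L929 supernatant, the source of the growth factor that drives their differentiation, and no agent was added to the cultures used here, as far as the labels say. The marrow of each mouse was processed separately per the labels' protocols, but the labels do not number the animals, the dose and length of the smoke exposure are not given in them, and p-values measure a spread between libraries that may be technical, in the expression table that of 24 libraries and in the splicing test that of these 6. Expression was available as group means of size-factor-normalized counts and as the authors' comparison, so depth and spread of single libraries are unknown for it, whereas splicing was given as percent inclusion in each library.

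The labelled cell type was checked against markers. All 8 macrophage markers reached a mean of 50 or more, their summed group means were 52690 in room air and 54620 in cigarette smoke, and none passed the test in the authors' deposited table. Of the other lists, 3 of 8 neutrophil, 0 of 3 T cell, 2 of 4 dendritic, 5 of 5 stromal and 1 of 5 erythroid markers were listed, with Ly6g, Cd3e, Flt3 and Hba-a1 among those not listed. The summed stromal markers were 41.1 in room air and 7.30 in smoke, and those of the neutrophil, dendritic and erythroid lists were each at most 1.09. Their part in the results below was not tested. In these bulk samples, less RNA per cell and fewer cells of a type cannot be told apart.

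Most of the initiation machinery did not pass the test, and the members that did were all higher after smoke. In the authors' deposited table, 6 of the 49 tested members rose at an adjusted p under 0.05 and 0 fell. That is 12.2% of the members, beside 7.69% of all 12082 tested genes called in either direction, 4.15% of them higher and 3.53% lower. None of the 6 stayed past the threshold once the trend of all fold changes with transcript length and GC content was removed, as described below. The 6 were Eif6, which keeps the large ribosomal subunit from joining too early, the eIF3 subunit genes Eif3k, Eif3g, Eif3d and Eif3i, and Eif4ebp1, whose product binds eIF4E and blocks its contact with eIF4G. The median log2 fold change of the 49 members was 0.09 against -0.0029 for all tested genes, and 31 of them (63.3%) had a positive value, against 49.7% of all tested genes. The plot of fold changes by role shows that the positive values were spread over several roles, while the calls lay in 3 of the 9 role groups.

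**Figure D1:**
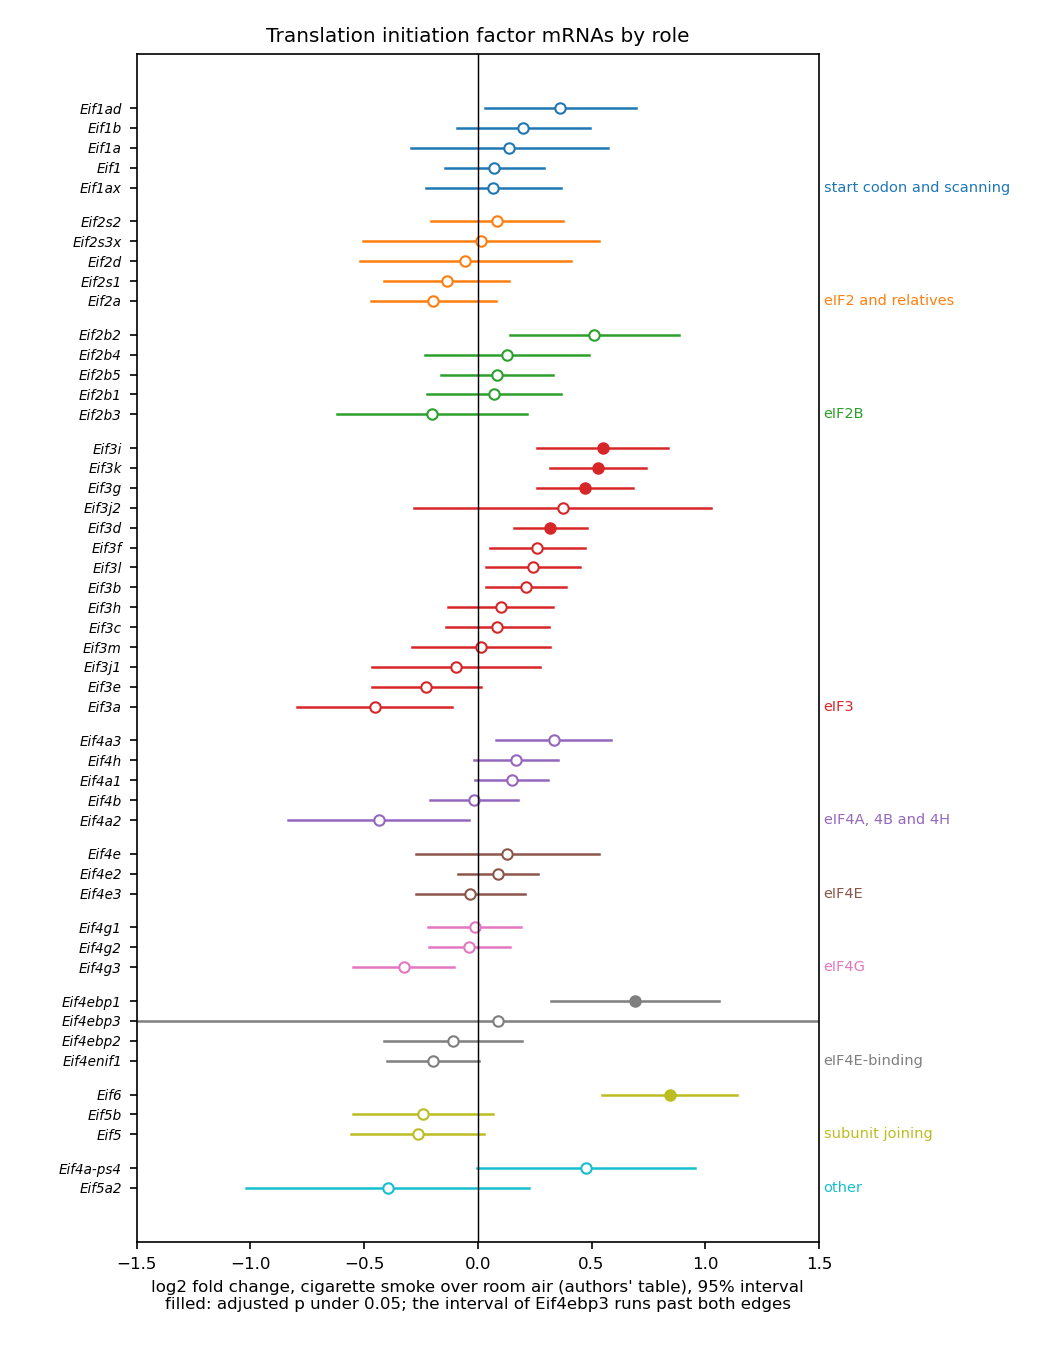
Log2 fold change of each tested initiation factor (x axis, cigarette smoke over room air, authors' deposited table) with its 95% interval, grouped and coloured by role; filled points have an adjusted p under 0.05. The 6 filled points all lie to the right of 0, with Eif6 farthest at 0.84, and Eif4ebp3 has the widest interval.

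Among the genes placed in the role group of start codon selection and scanning, none of 5 passed the test, although all 5 had a positive log2 fold change, with a median of 0.14. The most abundant was Eif1, the gatekeeper against wrong start codons, with 818 normalized counts in room air and 861 in smoke and a log2 fold change of 0.07 (SE 0.11) in the authors' deposited table. Its copy Eif1b, which shares 81.1% of the aligned coding nucleotides, stood at 117 and 132. Eif1a and Eif1ax, which encode eIF1A and share 85.7%, stood at 0.14 (SE 0.22) and 0.07 (SE 0.15) on that scale by the authors' deposited table. Eif1ad, placed here only by its name, which refers to an eIF1A-like domain, had the highest value of the group, 0.36 (SE 0.17, adjusted p = 0.17 by the authors' deposited table).

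The genes of eIF2, which carries the initiator tRNA, and of its relatives gave 0 calls among 5, with values from -0.19 to 0.09. Eif2s2, the most abundant of the 5 by mean, had 633 and 670 normalized counts and a log2 fold change of 0.09 (SE 0.15) in the authors' deposited table. Eif2s3x, the gamma subunit gene on the X chromosome, had 645 and 652 normalized counts in the authors' deposited table, and Eif2s1, whose product is the alpha subunit phosphorylated under stress, had a log2 fold change of -0.14 (SE 0.14). Eif2a and Eif2d, which encode alternative tRNA carriers, had -0.19 and -0.05. Of the 5 subunit genes of eIF2B, the exchange factor that reloads eIF2, none passed either. Eif2b2, the beta subunit gene, came nearest, with 142 normalized counts in room air and 205 in smoke, 0.51 on the log2 scale (SE 0.19, adjusted p = 0.0705) by the authors' deposited table. The other 4 subunit genes lay between -0.20 for Eif2b3 and 0.13 for Eif2b4, and the difference between Eif2b2 and these was not tested. Eif2b5, the most abundant eIF2B gene by mean, had 194 and 202 normalized counts and 0.08 (SE 0.13) in the authors' deposited table.

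The eIF3 complex, which binds the small subunit and holds the initiation complex together, contributed 4 of the 6 calls among its 14 tested genes, 0 of them lower, with a median log2 fold change of 0.23. Eif3k, a peripheral subunit (ENSMUSG00000053565.10, chromosome 7, 28971372 to 28981864, minus strand), rose from 373 to 541 normalized counts, 0.53 on the log2 scale (SE 0.11, adjusted p = 0.000285) by the authors' deposited table. Eif3i (ENSMUSG00000028798.16, chromosome 4, 129591960 to 129600648, minus strand) rose from 285 to 418, 0.55 on the log2 scale (SE 0.15, adjusted p = 0.00746) by the authors' deposited table. Its product sits with eIF3b and with the product of Eif3g in a mobile module of the complex. Eif3g (ENSMUSG00000070319.6, chromosome 9, 20894349 to 20898623, minus strand) rose from 227 to 316, 0.47 on the log2 scale (SE 0.11, adjusted p = 0.00132) by the authors' deposited table. Eif3d, which can itself bind the cap of some mRNAs (ENSMUSG00000016554.9, chromosome 15, 77958998 to 77970813, minus strand), rose from 607 to 762, 0.32 on the log2 scale (SE 0.08, adjusted p = 0.00454) by the authors' deposited table.

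The subunits of this complex did not have equal values. Eif3a, the gene of its largest subunit and scaffold (ENSMUSG00000024991.7, chromosome 19, 60761117 to 60790658, minus strand), had 2903 normalized counts in room air and 2118 in smoke, -0.45 on the log2 scale (SE 0.17), which did not pass in the authors' deposited table (adjusted p = 0.0832). Eif3e had -0.23 and Eif3j1 -0.10, and the remaining 11 had positive values. Eif3j2 had 0.37 with a wide error (SE 0.33), and Eif3f, Eif3l and Eif3b had 0.26, 0.24 and 0.21, with the last 3 at adjusted p-values of 0.107, 0.136 and 0.121 by the authors' deposited table. Eif3h, Eif3c and Eif3m lay at 0.10, 0.09 and 0.01. Eif3j1 and Eif3j2 cannot be separated with confidence, because their aligned coding sequences were identical over 783 nucleotides and 91.8% of the 50-base stretches of Eif3j2 also occur in transcripts of other genes. Per kilobase of the longest transcript, the levels within the complex ran in room air from 15.6 normalized counts for Eif3j2 to 707 for Eif3h, and those of Eif3k, Eif3g and Eif3d were close to each other at 209, 206 and 238. These are levels, not differences, and in smoke the same 3 genes stood at 304, 287 and 299 normalized counts per kilobase.

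Promoter sequences of 3 of the 4 called eIF3 genes are shown because these genes passed the test in the same direction. RefSeq on GRCm38.p6 gave an entry for 37 of the 52 members, and the table used here holds Eif3k, Eif3d and Eif3g but not Eif3i, nor the called genes Eif6 and Eif4ebp1, which were therefore not searched. Each stretch runs from 180 bases before to 20 bases after the start of transcription, on the strand of the gene. Capitals mark the E-box letters CACGTG and, as the longer run of capitals, the palindromic NRF1 motif of alternating G and C around a central AT.
Eif3k promoter, chr7:28981869-28982068, minus strand: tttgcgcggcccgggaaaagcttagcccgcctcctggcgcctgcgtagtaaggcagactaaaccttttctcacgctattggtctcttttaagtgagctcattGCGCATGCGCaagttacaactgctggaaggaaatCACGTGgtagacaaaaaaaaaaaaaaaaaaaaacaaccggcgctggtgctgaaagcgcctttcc
Eif3d promoter, chr15:77970805-77971004, minus strand: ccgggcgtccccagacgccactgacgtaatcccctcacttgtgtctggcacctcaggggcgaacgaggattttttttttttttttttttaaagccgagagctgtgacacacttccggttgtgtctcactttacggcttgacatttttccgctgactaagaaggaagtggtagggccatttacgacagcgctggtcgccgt
Eif3g promoter, chr9:20898571-20898770, minus strand: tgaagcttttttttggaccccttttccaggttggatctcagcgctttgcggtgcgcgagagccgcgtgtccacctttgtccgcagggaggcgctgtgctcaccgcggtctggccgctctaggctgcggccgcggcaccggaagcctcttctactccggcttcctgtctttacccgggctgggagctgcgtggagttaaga
The Eif3k stretch held both motifs, and those of Eif3d and Eif3g held neither. Searched on both strands in the window of 250 bases before to 50 after the start, CACGTG was found at 9 of 44 member starts (20.5%) against 7.15% of 32851 starts of all genes, in Eif1b, Eif3a, Eif3f, Eif3k, Eif4a1, Eif4e, Eif4g1, Eif4h and Eif5a2. The NRF1 motif, spelled as in the capitals of Eif3k, was found at 1 member start (2.3%), that of Eif3k, against 0.971% of all. The amino acid response letters TGATGCAA were at 0 member starts against 0.895% of all, and a start with C followed by 4 pyrimidines was found in Eif2s3x and Eif3f (4.55% against 2.51%). The median GC content of the member promoters was 62.5%, against 52.7% for all, and of the genes found to hold the E-box letters Eif3k passed the expression test. A match to these letters is a description of the sequence, not a binding site.

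Of the factors that open mRNA structure, none of 5 passed. Eif4a1, which encodes the main cap-associated helicase and had the highest level per kilobase of all members, 863 normalized counts in room air and 955 in smoke, had a log2 fold change of 0.15 (SE 0.08) in the authors' deposited table. Eif4a2, its paralog with 78.2% identity in the aligned coding sequence, had 936 and 691 normalized counts, -0.43 on the log2 scale (SE 0.20, adjusted p = 0.172) by the authors' deposited table. Whether the paralogs differ from each other was not tested. Eif4a3, the helicase of the exon junction complex, had 303 and 384, 0.33 on the log2 scale (SE 0.13, adjusted p = 0.0862) by the authors' deposited table. The helicase cofactors Eif4b and Eif4h had -0.02 and 0.17. Reads of Eif4a1 are uncertain in part, since 33.3% of its 50-base stretches occur in other genes, the pseudogene Eif4a-ps4 among them, and Eif4a-ps4 itself shares 95.7%. That pseudogene was listed with 288 and 401 normalized counts and 0.48 on the log2 scale (SE 0.24, adjusted p = 0.222) by the authors' deposited table.

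None of the 3 cap-binding genes and none of the 3 scaffold genes passed the test. Eif4e, the target of the 4E-binding proteins, had 435 and 477 normalized counts and a log2 fold change of 0.13 (SE 0.20) in the authors' deposited table. Eif4e2, which encodes a repressive homolog, and Eif4e3 had 0.09 and -0.03, and their aligned coding sequences were 63.3% and 56.7% identical to that of Eif4e. Of the eIF4G scaffolds, Eif4g2 (also known as Dap5), which lacks the eIF4E-binding site, was the most abundant member by normalized counts, with 4470 in room air and 4355 in smoke, a log2 fold change of -0.04 (SE 0.09) in the authors' deposited table. Eif4g1, the main scaffold, had -0.01 (SE 0.10). Eif4g3 (ENSMUSG00000028760.16, chromosome 4, 137993022 to 138208508, plus strand), a second full-length scaffold whose aligned coding sequence was 68.1% identical to that of Eif4g1, had 1100.1 and 873 normalized counts and -0.33 on the log2 scale (SE 0.11), just short of the threshold in the authors' deposited table (adjusted p = 0.0516). It was called, with an adjusted p of 0.0441, when p-values from that table were adjusted again over the 9016 genes whose mean reached 50 normalized counts, where 10.0% of all genes were called.

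Among the 4 genes for proteins that bind eIF4E, Eif4ebp1 (ENSMUSG00000031490.6, chromosome 8, 27260329 to 27276674, plus strand) passed the test. It rose from 102 to 167 normalized counts, 0.69 on the log2 scale (SE 0.19, adjusted p = 0.00894) by the authors' deposited table. Eif4ebp2, the most abundant of the 4 and 69.1% identical to Eif4ebp1 in the aligned coding sequence, had 766 and 705 with a log2 fold change of -0.11 (SE 0.15) in the authors' deposited table. Per kilobase, Eif4ebp1 stood at 51.3 normalized counts in room air and 83.6 in smoke, and Eif4ebp2 at 132 and 122. Eif4ebp3 had an interval too wide to read (0.09, SE 1.29), and Eif4enif1, which shuttles eIF4E into the nucleus, had -0.20 (SE 0.10) in the authors' deposited table.

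Of the genes that act at subunit joining, Eif6 (ENSMUSG00000027613.15, chromosome 2, 155819832 to 155826925, minus strand) had the largest change of all tested members. It rose from 161 to 292 normalized counts, a 1.80-fold difference or 0.84 on the log2 scale (SE 0.15, 95% interval 0.55 to 1.14, adjusted p = 1.96e-05) by the authors' deposited table. Eif5, the GTPase activator of eIF2, and Eif5b, the joining GTPase, had negative values that did not pass, -0.26 (SE 0.15) and -0.24 (SE 0.16) by the authors' deposited table. Eif5a2, a paralog of the hypusinated factor eIF5A that acts mainly in elongation, had -0.40 (SE 0.32). The pseudogenes Eif3s6-ps1, Eif3s6-ps2 and Eif5al3-ps were listed with group means of at most 5.82 normalized counts and had no adjusted p.

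How far the members that did not pass can be bounded varied. Of these 43, 33 had a 95% interval that stayed within a 1.5-fold difference in either direction. The other 10 were Eif1ad, Eif2b2, Eif2b3, Eif3a, Eif3j2, Eif4a2, Eif4a3, Eif4ebp3, Eif4a-ps4 and Eif5a2. The median standard error of the members was 0.15, against 0.21 for all tested genes. Sharing of sequence with other genes was small for the 6 called members, of whose 50-base stretches at most 3.03% (in Eif4ebp1) occurred elsewhere in the transcriptome, while Eif3d, Eif3g and Eif3i had 0%. The annotated antisense genes Gm16098 and Gm17638 overlap Eif6 and Eif3d, and whether the counting used strand is not given in the sources used here, so reads of these pairs may be mixed.

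The fold changes of the members were lower in longer transcripts. Across the 49 members, which are not independent replicates, the Spearman correlation of the log2 fold change with the length of the longest transcript was -0.70, and with its GC content 0.44. Over 12071 tested genes of all kinds these were -0.45 and 0.48, so the same signs were present across all genes. The 24 shorter members had a median log2 fold change of 0.25, with 22 positive, and the 25 longer ones -0.05, with 9 positive. The 6 called transcripts were 1101 to 2546 nucleotides long with a median of 1889.5, against a median of 3383 for the members not called. Their GC content was 47.6% to 57.9%, with medians of 51.9% for the called and 49.3% for the other members.

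**Figure D2:**
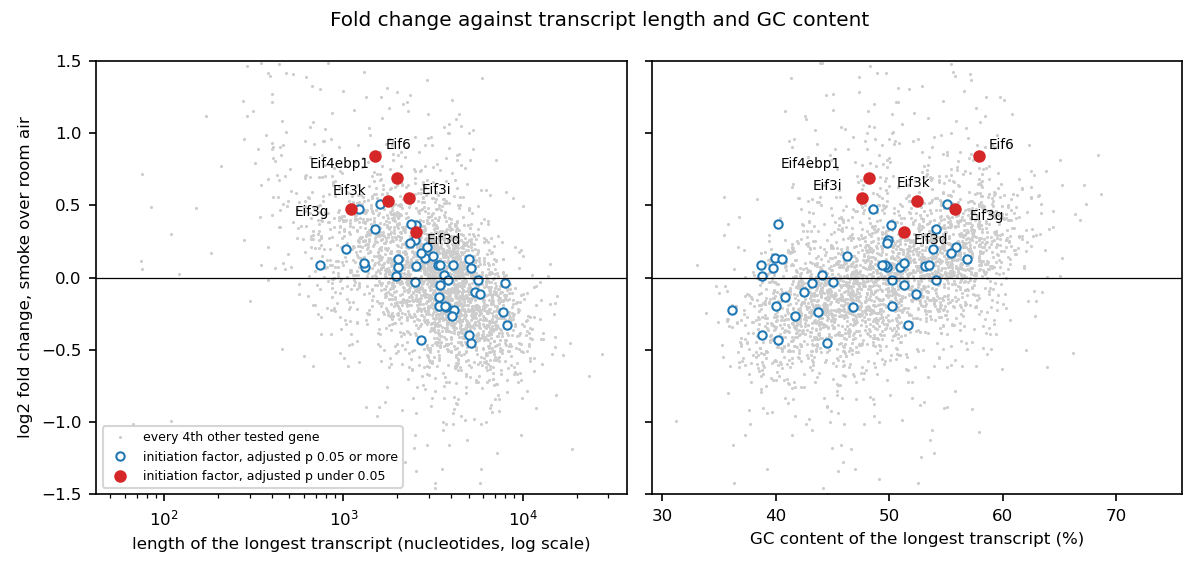
Log2 fold change, smoke over room air (y axis), against the length of the longest transcript in nucleotides on a log scale (left) and its GC content in percent (right); grey points are a regular subset of the other tested genes within the axis limits, open points are initiation factors that did not pass and filled points the 6 that did. The filled points sit in the shorter part of the length range, at 1101 to 2546 nucleotides, and the members slope downward with length.

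When the trend of all genes with length and GC content was removed, the log2 fold change of Eif6 was 0.50 (adjusted p = 0.063), that of Eif4ebp1 0.60 (adjusted p = 0.0777) and that of Eif3i 0.50 (adjusted p = 0.0528), from the recomputed Wald test with Benjamini-Hochberg adjustment. In the same test Eif3k had 0.33 (adjusted p = 0.107), Eif3d 0.21 (adjusted p = 0.215) and Eif3g 0.14 (adjusted p = 0.729). None of the 49 members passed then, and 1.27% of all genes did. The values of all 6 stayed positive, and Eif3g kept the smallest residual, 0.14 of its 0.47. Eif3a had -0.26 and Eif4g3 -0.19 after this step, and the median of the members was 0.07. Length and GC content move with the fold changes of the whole table, and what gives rise to this trend was not tested.

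**Figure D3:**
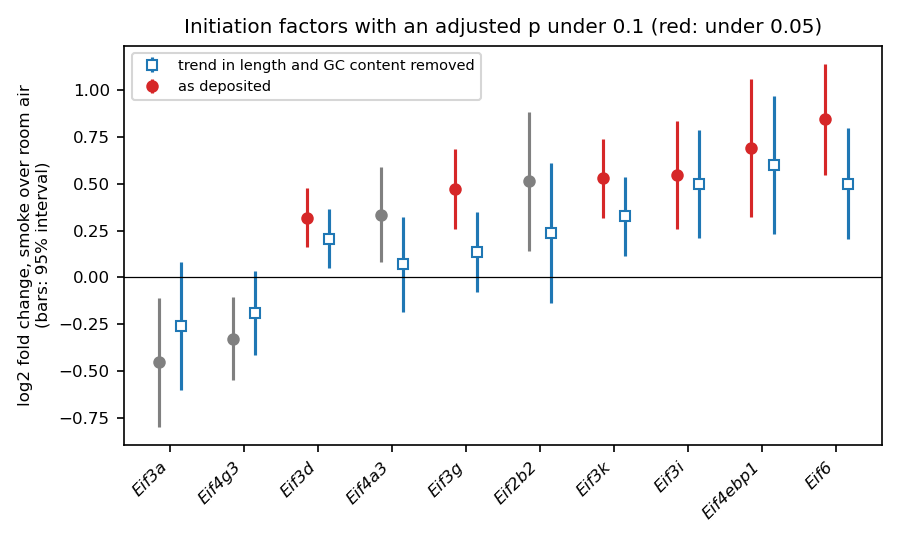
Log2 fold change, smoke over room air (y axis), of the 10 members with an adjusted p under 0.1 in the authors' deposited table, as deposited (filled circles, red where the adjusted p was under 0.05) and with the trend in length and GC content removed (open squares); bars are 95% intervals from the deposited standard errors. Every square lies closer to 0 than its circle, for Eif6 at 0.50 against 0.84.

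The rest of the initiation pathway was read from a list of 34 symbols outside the rule, of which 33 were listed and tested. The symbol not listed, Gcn1, is a second name of the listed gene Gcn1l1. By the authors' deposited table, 1 of the 33 genes was higher and 1 lower, beside 7.69% of all tested genes called, and the median log2 fold change was -0.05. Eif5a, which encodes the hypusinated factor, rose from 1054 to 1709 normalized counts, 0.70 on the log2 scale (SE 0.11, adjusted p = 4.42e-07) by the authors' deposited table. Eif2ak2, the gene of the double-stranded RNA kinase PKR that phosphorylates eIF2, fell from 705 to 503, -0.48 on the log2 scale (SE 0.14, adjusted p = 0.0133) by the authors' deposited table. With the trend in length and GC content removed, Eif5a stayed past the threshold at 0.41 (adjusted p = 0.0228) and Eif2ak2 did not, at -0.32 (adjusted p = 0.308), in the recomputed Wald test. The other eIF2 kinases Eif2ak1, Eif2ak3 and Eif2ak4 did not pass.

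Splicing of the members was read from 63 JuncBASE events, which are not independent, since 14 lie in Eif4a2 and 13 in Eif4g1 and many share a junction. They comprised 15 retained introns, 14 acceptor and 8 donor choices read from junctions alone, 12 alternative acceptors, 4 alternative donors, 9 cassette exons and 1 coordinated cassette. Cigarette smoke replicate 1 stood apart in missing values: 21 of the 63 events had no value there, against 1 in room air replicate 1 and 0 in the other 4 libraries. In the limma test none of the 63 events passed an adjusted p under 0.05, with a lowest adjusted p of 0.191, and 2 had an unadjusted p under 0.05, both lower after smoke. Over all 10376 events, 0 passed (0.0%), and 10.8% had an unadjusted p under 0.05, 9.29% with lower inclusion after smoke.

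The introns kept most often belong to Eif4a2, in the 3′ part of the gene, and their splice sites are shown because these introns have the highest retention of all member introns. Each donor has 8 exon bases and 20 intron bases, each acceptor 22 intron bases and 6 exon bases, taken from GENCODE M21 transcripts on GRCm38, and capitals mark the first and last 2 bases of the intron.
Eif4a2 donor of the 454-nucleotide intron: attcacagGTgagaagaaagcatctcca
Eif4a2 acceptor of the 454-nucleotide intron: aaagactttttaaaaaatacAGgagtcg
Eif4a2 donor of the 709-nucleotide intron: aagagcgaGTcggtatttatatttgatt
Eif4a2 donor of the 705-nucleotide intron: gcgagtcgGTatttatatttgattttct
Eif4a2 acceptor shared by the 709- and 705-nucleotide introns: ttggtttctttctcttacacAGaattgg
The 454-nucleotide intron lies at chr16:23111897-23112350 on the plus strand, has a GC content of 35.5% and follows the usual GTgag donor. The 709-nucleotide intron, chr16:23112458-23113166, starts at GTcgg, and the donor of the 705-nucleotide intron, chr16:23112462-23113166, lies 4 bases downstream. The annotation also holds a coding transcript whose last exon contains both of these introns, so a read inside them may be exonic.

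The 454-nucleotide intron of Eif4a2 was kept at 35.3%, 40.5% and 33.3% in the room air libraries and at 26.3%, 20.6% and 28.5% in the smoke libraries. All 3 smoke values lay below all 3 room air values, a difference of -11.2 percentage points between 36.4% ± 3.69 and 25.1% ± 4.07 (SD, n = 3 each), with an adjusted p of 0.533 from limma. The 709-nucleotide intron stood at 80.0%, 84.2% and 83.6% in room air and at 69.2%, 80.0% and 74.8% in smoke, where the highest smoke value equalled the lowest room air value. The 705-nucleotide intron had 75.0%, 78.4% and 77.3% against 75.0%, 80.0% and 74.0%, with groups that overlap. A choice of acceptor after the same upstream exon, read from junctions alone, was 62.9%, 63.0% and 66.0% against 70.0%, 69.2% and 62.9%, and its groups overlap too. Among the donors that compete for the downstream acceptor, the one of the 709-nucleotide intron took 20%, 17.1% and 17.2% of junction reads in room air and 30.8%, 22.7% and 24% in smoke, without overlap and with an adjusted p of 0.574 from limma. The junction that skips both introns and the exon between them took 52.0%, 57.9% and 58.6% against 46.1%, 54.5% and 50%.

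The 2 member events with the lowest p-values in limma were also retained introns. The p-values of the authors' deposited table for these events were higher, 0.256 for Eif4g2 and 0.0744 for Eif4h before correction and 1 after it, and the lowest there among the members was 0.036 (0.804 after correction), for the Eif4e2 donor choice described below. In Eif4g2, the intron at chr7:111075713-111076695 (minus strand, 983 nucleotides, around the small nucleolar RNA gene Gm23262) was kept at 18.8%, 16.7% and 18.9% in room air and at 0%, 0% and 5.56% in smoke. The groups did not overlap, 18.1% ± 1.25 against 1.85% ± 3.21 (SD, n = 3 each), a difference of -16.3 percentage points with an unadjusted p of 0.0040 and an adjusted p of 0.191 from limma. The junction over this whole Eif4g2 intron was a minor one. Read from junctions alone, a shorter junction from a donor inside it took on average 94.0% in room air and 89.4% in smoke. A shorter junction to an acceptor inside it took 94.0% and 90.0%, and the groups overlap in both choices. Retention in Eif4g2 was thus scored against a minor junction, not against the usual splicing of this stretch. In Eif4h, the intron at chr5:134622087-134625365 (minus strand, 3279 nucleotides, spanning a cassette exon) was kept at 9.30%, 6.78% and 7.35% in room air and at 0%, 0% and 4.55% in smoke, with an unadjusted p of 0.0198 and an adjusted p of 0.35 from limma. Read depth per event is unknown, so no upper limit can be given for the values of 0%. In both the Eif4g2 and the Eif4h intron, smoke replicates 1 and 2 were at 0%, so these smoke values alone have no spread. In both introns, smoke replicate 3 was the smoke library with a value above 0. Without it, 1064 of 10243 events (10.4%) and 3 of 62 member events passed in limma: the Eif4g2 and Eif4h introns, each with an adjusted p of 0.0249, and a cassette exon of Eif4g1 at chr16:20672877-20674227 with an adjusted p of 0.0492. That last event had no value in smoke replicate 1 either, so 1 smoke library (100%) was set against room air values of 93.8%, 89.3% and 91.3%, and the lone library is assumed to vary like the other group. Smoke replicate 3 itself had 88.9% for this exon, below all room air values, so with it the groups overlap. The cassette exon inside the Eif4h intron itself was included at 51.9%, 49.1% and 51.2% in room air and at 40.0%, 56.9% and 51.2% in smoke, and its groups overlap.

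**Figure D4:**
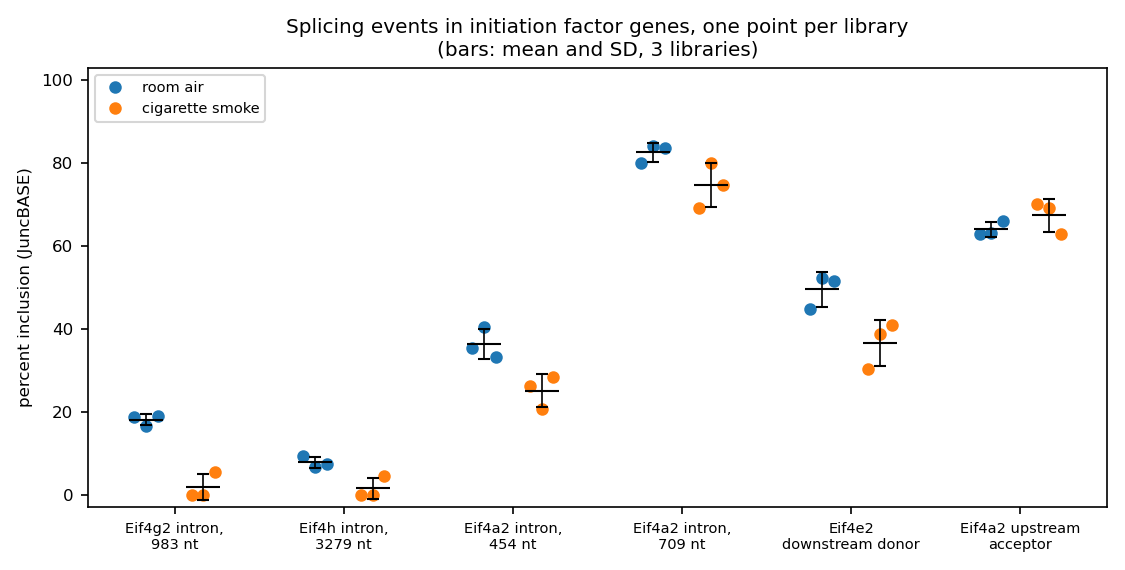
Percent inclusion by JuncBASE (y axis) of 6 events in initiation factor genes, with 1 point per library, room air in blue and cigarette smoke in orange; horizontal lines and bars are the mean and SD of 3 libraries. The smoke points of the Eif4g2, Eif4h and 454-nucleotide Eif4a2 introns and of the Eif4e2 donor lie below all room air points, and none of these events passed the adjusted test.

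The Eif4e2 event in that plot was chosen after its values were seen. Use of the downstream one of its competing donors, read from junctions between chr1:87214020 and chr1:87219580, was 44.7%, 52.3% and 51.5% in room air and 30.4%, 38.7% and 40.9% in smoke, without overlap and with an adjusted p of 0.537 from limma. Scored as an alternative donor event, the same choice differed less. It was 22.2%, 27.9% and 27.3% in room air and 15.8%, 20.8% and 22.0% in smoke, with an adjusted p of 0.623 from limma. Of the events with a value in every library, 23.1% of all had groups without overlap, so such a split is common in this table. Of the other introns with high retention over both groups, the Eif4g2 intron is given above, and the remaining ones were the Eif4a2 intron around the small nucleolar RNA gene Snord2 (268 nucleotides, 9.35% in room air and 7.42% in smoke, no value in smoke replicate 1), and a 1567-nucleotide intron of Eif4e2 (3.57%, 14.7% and 11.4% against 6.25%, 3.12% and 9.72%).

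Retained introns of the members shared a direction with those of all genes. Over the 13 of 15 member introns with a value in every library, the mean retention was 19.75%, 21.8% and 20.15% in the room air libraries and 13.95%, 15.35% and 16.95% in the smoke libraries. The groups did not overlap, 20.6% ± 1.09 against 15.4% ± 1.5 (SD, n = 3 each), a difference of -5.14 percentage points. Of the 13 introns 12 had a lower mean after smoke (92.3%), and 5 had all smoke values below all room air values (38.5%), beside 38.7% of all such introns. In 1979 introns of other genes the mean retention was 15.6%, 16.7% and 14.7% against 10.2%, 11.2% and 12.8%, and 92.5% of them were lower. The shares of introns lower after smoke were thus close in both sets, which the plot of mean retention shows side by side, and their difference was not tested. Smoke replicate 1 had no value in 21 of the 63 member events, and smoke replicates 2 and 3 lacked 0. All 3 smoke libraries had a lower mean than every room air library. The part of coverage in these lower values was not tested: without smoke replicate 1 the member difference was -4.42 points.

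**Figure D5:**
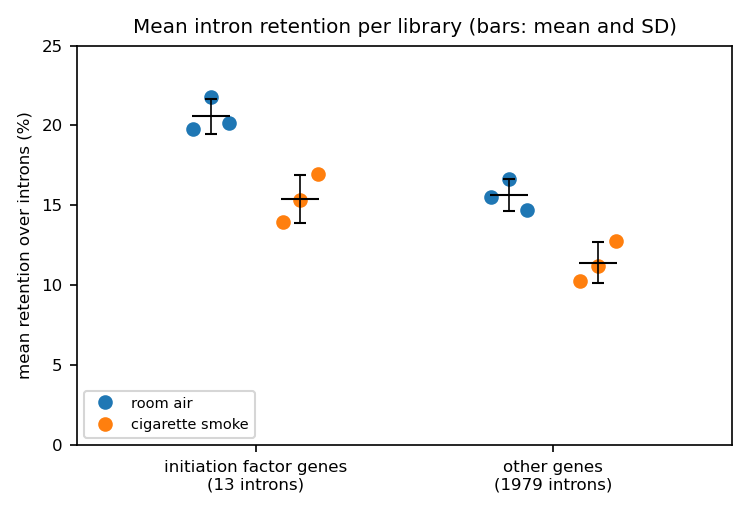
Mean retention in percent (y axis) over introns with a value in every library, for 13 introns of initiation factor genes and 1979 introns of other genes, with 1 point per library; lines and bars are the mean and SD of 3 libraries. Smoke points lie below room air points in both sets, by 5.14 and 4.23 percentage points.

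The authors' rMATS comparison of retained introns covered 24 introns in 10 member genes. By the authors' deposited table, 5 of them (20.8%) had a false discovery rate under 0.05, beside 14.5% of all 3887 introns, and all 5 had higher retention in its first sample set, as had 537 of the 565 introns called over all genes. The groups behind the sample sets are not named in that table, and its differences are given without a direction for smoke. The 454-nucleotide Eif4a2 intron had the largest of these differences, 11.7 points (false discovery rate 0.00515) by the authors' deposited table, and it was the single member intron called with a difference of at least 10 points (1 of 24, 4.17%, beside 4.43% of all introns). The others were small: in the authors' deposited table the Eif3l intron at chr15:79081928-79084111 differed by 2.0 points, that of Eif5b at chr1:38050326-38051122 by 1.9, that of Eif4a1 at chr11:69667775-69668021 by 1.7 and that of Eif1 at chr11:100321050-100321316 by 0.7. The false discovery rates given for them by the authors' deposited table were 0.000243, 0.00905, 0.0142 and 0.0363. The donors of the introns with sequence at hand are set beside each other to show that they share the letters GT followed by a purine.
Eif5b donor: gcaaaaatGTaagttccaggccaacatc
Eif4a1 donor: acctgttgGTgagtagatgctttcaggg
Eif1 donor: tgatagagGTgagtttaggccgccctca
These introns were 797, 247 and 267 nucleotides long, with GC contents of 44.4%, 46.1% and 42.7%, and the Eif4a1 intron holds the small nucleolar RNA gene Gm24029. Over all 24 member introns, 19 had higher retention in the first set and 3 in the second, against 2715 and 1119 over all genes.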

How the data were processed

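Polyadenylation selection or ribosomal RNA depletion is not given in the sources used here; libraries were made from total RNA with a directional kit, per the labels' protocols. The authors used STAR, DESeq2, SAMtools 1.9 and bedtools 2.27.1 with the build mm10, per the submitters' processing notes. The gene table deposited by the authors holds group means of size-factor-normalized counts as its signal, log2 fold changes with standard errors, Wald scores and p-values, from a fit to 24 libraries, of which 18 are not used here although their spread entered the standard errors. A filter on low means left 7291 genes without an adjusted p. The authors deposited percent inclusion per library, a difference score and their own raw and corrected p-values from JuncBASE, and p-values and a difference score from rMATS, whose 6 columns of per-sample values were not used because its sample sets are not named.

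With group means alone, the authors' adjusted p under 0.05 was the expression test, the replacement planned for such a table, and leaving out libraries was not possible there. A trend of log2 fold change in log2 length and GC content of the longest transcript (GENCODE M21, 99.9% of tested genes) was removed by weighted splines of 4 degrees of freedom (statsmodels 0.14.6), and Wald p-values were recomputed. Inclusion p was analysed as log2((p + 1)/(100 - p + 1)) in limma 3.58.1 (R 4.3.3) over 10376 events with Benjamini-Hochberg adjustment; on simulated levels for these 10376 events it recovered 0% of 200 changes of 2 log2 odds, 42% of 4 and 84% of 8. Coverage per event is unknown. Of 6001 events marked known, 98.6% matched annotated introns, in members 34 of 34. Alternatives were the low-count filter, means under 50, the trend, centring and threshold for expression, and pseudocount, scale, missing values, replicate block and single libraries for splicing. The result of 1 marker list is not reported here. Identity of copies was computed on coding nucleotides in place of proteins. The members, lists, tests and alternatives were chosen with earlier results of these data known. Members were placed in 9 role groups, with Eif5a2 and 4 pseudogenes set apart (2 of these 5 tested, 0 called), and further members were named with their values to show the range of a group. The members and events to be named in any case were those with an adjusted p under 0.1, the 3 largest changes each way, the most abundant member of each role group, both members of each pair of copies, member events with an unadjusted p under 0.05, the 5 introns kept most and the rMATS introns called.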

Additional observations from a re-analysis of the deposited data

How the results depend on the processing

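Without the trend in length and GC content, 153 of all genes and 0 initiation factors were called, against 929 and 6, and the share of calls that were higher was 65.4% against 54.0%. At an adjusted p under 0.1 the counts were 1547 and 10. Dropping the low-count filter, requiring a mean of at least 50 normalized counts or centring the fold changes left the same 6 members called, with Eif4g3 added under the second. For the inclusion test, 5 of all events were called on untransformed percentages and 23 among events with a value in every library, and 0 member events under either. Leaving out 1 library at a time gave 0 to 1064 calls over all events and 0 to 3 among the members, above 0 in each case without cigarette smoke replicate 3 alone. Over the 5933 events with all values, deviations of same-numbered libraries from their group mean had r of 0.018, -0.040 and -0.089. Those of differently numbered libraries had r from -0.072 to 0.127. Noise in single percentages can also lower r, so whether the numbers pair the libraries is not settled by these values. A fit with the replicate block called 0 events, members included. The member difference in mean retention ranged from -5.92 to -4.42 percentage points without 1 library. Of the member introns called by rMATS, 1 of 5 differed by at least 10 points, and of all introns called 172 of 565. Library depths are unknown, so the limit that depth sets could not be given.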
